A study of Mus musculus with 6 samples.

Results

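The genes described here build and fill the lysosome: the subunits of its proton pump, the cathepsin proteases that work in its acid interior, and the LAMP and LAPTM proteins of its membrane. They were taken by name from the deposited table, as every gene whose symbol begins with Atp6v, is Atp6ap1 or Atp6ap2, is Cts with a single letter, is Lamp1 to Lamp5, or is Laptm4a or Laptm4b. The rule found 50 rows with 48 distinct names among 31032 names in the table, and for a name with more than 1 row the most abundant row was taken. Levels were compared between 3 libraries labelled pvalb driven dicer knockout and 3 labelled wild-type. All 6 came from parvalbumin-positive neurons of the lumbar 4 dorsal root ganglion of C57BL/6 mice at postnatal day 21. In the knockout a parvalbumin-Cre allele deletes Dicer, the nuclease that matures microRNAs, and the title of the study names the upkeep of proprioceptor identity as its question. The labels do not say whether the wild-type animals carried Cre, whether animals were pooled, or how many animals stand behind the 3 libraries of a group. The p-values therefore cover the variation among these libraries, which may be technical.

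The vacuolar proton pump, or V-ATPase, is a rotary motor. Its V1 sector lies in the cytosol and hydrolyses ATP, and its V0 sector lies in the membrane and carries protons into the lumen of lysosomes, endosomes and secretory or synaptic vesicles. Cathepsins are made as inactive precursors and become active in that acid, and LAMP glycoproteins coat the inner face of the lysosomal membrane. In neurons the same pump also energises the loading of transmitter into synaptic vesicles, so its transcripts are not specific to lysosomes. The transcription factor TFEB switches on many of these genes through a short promoter element, the CLEAR element, which holds the E-box CACGTG.

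The libraries held the transcripts of large sensory neurons, with some from satellite glia. Between 13237 and 13960 rows reached 1 TPM, a transcript's share of its library corrected for length, in a library, and log2 values correlated across rows at 0.963 to 0.973 within knockout, 0.949 to 0.968 within wild type and 0.925 to 0.964 between the groups. Dicer1 was at 24.0, 20.8 and 21.8 TPM in knockout libraries, against 36.7, 26.0 and 48.7 TPM in wild-type libraries. The groups did not overlap, but the difference did not pass (log2 difference -0.68, SE 0.22, limma adjusted p = 0.104), and a whole-gene value does not show how much of a deleted exon was lost. Pvalb, the gene that marks these neurons and drives the Cre, was at 4.02, 3.69 and 13.98 TPM in knockout libraries and 25.05, 19.69 and 23.11 TPM in wild-type libraries, and fell (limma adjusted p = 0.0452). Of the 12 proprioceptor and sensory neuron markers, Pvalb, Runx3, Etv1 and Spp1 fell, Rbfox3 rose and 7 did not pass. The 12 summed to 20457 to 20965 TPM in knockout and 23484 to 25011 TPM in wild type, without overlap. The largest part was Snap25, which did not pass. It was at 10605 to 11374 TPM in knockout and 11323 to 14276 TPM in wild type, with overlap. The part of these marker differences in the differences below was not tested. Replicate 3 of each group stood apart from replicates 1 and 2 in sex-linked transcripts, with Ddx3y at 32.7 TPM in knockout and 33.3 TPM in wild type, against at most 0.02 TPM in the other 4 libraries. The 12 satellite glia markers summed to 519 to 1107 TPM in knockout and 907 to 2029 TPM in wild type. Fabp7 and Gja1 were lower and the other 10 did not pass. The markers did not all run one way: before adjustment, 4 were lower and 2 higher at a limma p below 0.05. The 2 higher were Glul (log2 difference 0.65) and Cadm2 (0.60). The 7 Schwann cell markers summed to 1039 to 1391 TPM in knockout and 449 to 529 TPM in wild type, nearly all of it Pmp22, which rose, while Mbp was at 5.60 to 7.85 TPM in knockout and 10.8 to 17.9 TPM in wild type and Mag at or below 0.18 TPM in all libraries. The part of these glial transcripts in the differences below was not tested beyond 1 fit with the mean log2 level of the satellite glia markers as a covariate, given beside Lamp2 and Atp6v0e and once for the lists. In libraries of this kind, fewer cells of a type and less RNA per cell cannot be told apart.

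Exons of 10 tested members (Lamp1, Atp6v0b, Atp6v0a2, Atp6v1e1, Atp6v1g2, Atp6v1h, Ctsa, Ctsb, Ctsl and Ctsz) overlap a gene on the other strand. Their values are uncertain to that extent. For Lamp2 and Atp6v0e no such overlap and no near-identical copy was found. The copies found for other members matched at least 31.5% of a transcript, and a copy matching a smaller part may have been missed.

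Cathepsins are abundant in macrophages, so macrophage transcripts were looked at first. The 14 macrophage markers summed to 5.83 to 7.09 TPM in knockout libraries and 6.34 to 10 TPM in wild-type libraries. The only one tested, Lyz2, was at 2.54 to 4.74 TPM in knockout and 6.02 to 8.08 TPM in wild type. C1qb was at 0.42 to 0.64 TPM in knockout and listed at 0 in wild type, and Cx3cr1 was at 0.06 to 0.13 TPM in knockout and 0 to 0.05 TPM in wild type, so these ran opposite to Lyz2. C1qa, C1qc and Fcer1g were listed at 0 in every library, and so was Ctss, the member that macrophages and microglia are best known for. Apart from Lyz2, no macrophage marker exceeded 1.8 TPM in any library.

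Of the 48 members, 32 reached a mean of 1 TPM over the 6 libraries and were tested, 23 of them at 100 TPM or more. The tested members were 9 genes of the V1 sector, 7 of the V0 sector, 2 accessory subunits, 10 cathepsins and 4 LAMP or LAPTM genes. Lamp2 and Atp6v0e rose in knockout libraries, and no member fell. That is 6.25% higher and 0% lower among tested members, where limma called 1.86% of all 13787 rows tested higher and 3.17% lower (256 and 437 rows; 375 and 385 when libraries were scaled by median of ratios, which kept both members). Without the adjustment, 4 members were higher and 6 lower at p below 0.05 (12.5% and 18.8% of the 32, against 9.77% and 14.1% of all rows). The groups did not overlap for 6 members that were higher in knockout and 7 that were lower, which is 18.8% and 21.9% against 11.8% and 17.1% of all rows. The median log2 difference was -0.13 over tested members and -0.05 over all rows. The plot of levels shows these genes spread over more than 2 orders of magnitude with the groups mostly side by side.

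**Figure D1:**
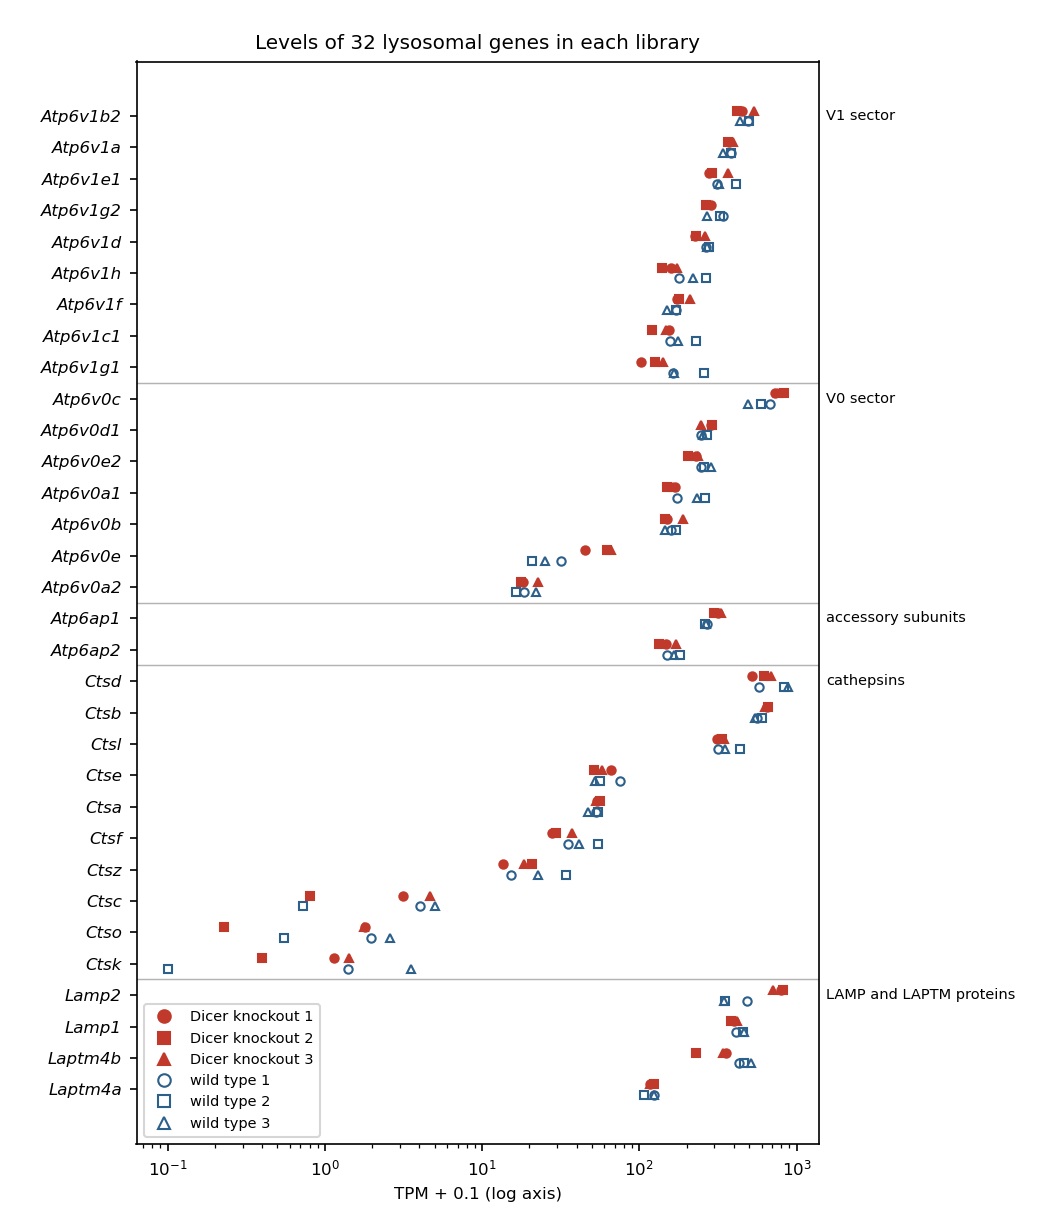
Level of each tested member in every library, as TPM + 0.1 on a log axis; filled red marks are Dicer knockout libraries, open blue marks are wild type, and shapes give the replicate. The groups stand visibly apart for Lamp2 and Atp6v0e, and replicate 2 of each group is low for Ctsc, Ctso and Ctsk.

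The V1 sector was expressed at even, high levels, and none of its 9 tested genes passed limma. Atp6v1b2, which encodes the B subunit of the ring that binds ATP, was at 450, 418 and 537 TPM in knockout libraries, against 488, 499 and 438 TPM in wild-type libraries. Atp6v1a, the subunit that hydrolyses ATP, was at 374, 369 and 395 TPM in knockout libraries, against 385, 380 and 338 TPM in wild-type libraries. Both pairs of groups overlapped. The 95% interval of the Atp6v1a log2 difference ran from -0.18 to 0.27, and that of Atp6v1b2 from -0.30 to 0.25. Atp6v1e1, a stator subunit, was at 278, 288 and 366 TPM in knockout and 310, 415 and 320 TPM in wild type, again with overlap.

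The lowest V1 values in knockout relative to wild type were those of Atp6v1g1, a stator subunit that most tissues express. It was at 102, 125 and 142 TPM in knockout libraries, against 165, 258 and 165 TPM in wild-type libraries. The groups did not overlap, wild-type replicate 2 stood above the others, and the difference did not pass (log2 difference -0.65, SE 0.19, limma adjusted p = 0.0881). A processed pseudogene matches 31.5% of its transcript at 99.4% identity. Its paralog Atp6v1g2, which is known from neurons, averaged 273 ± 9.97 TPM in knockout and 312 ± 37.0 TPM in wild type (SD, n = 3 each). Atp6v1h, a subunit needed to couple the sectors, averaged 157 ± 17.3 and 221 ± 43.0 TPM (SD, n = 3 each) in knockout and wild type, with a log2 difference of -0.48 that did not pass (limma adjusted p = 0.107); without wild-type replicate 1 it was -0.62 and passed (adjusted p = 0.0466). Atp6v1c1, Atp6v1d and Atp6v1f, further subunits of the stalks, had log2 differences of -0.40, -0.18 and 0.19 and did not pass. In Atp6v1g1, Atp6v1h, Atp6v1c1 and Atp6v1d every knockout value lay below every wild-type value, which is 44.4% of the 9 against the 17.1% of all rows given above. In Atp6v1f every knockout value (174 to 210 TPM) lay above every wild-type value (150 to 172 TPM), which is 11.1% of the 9 against 11.8% of all rows. The sector summed to 2206, 2135 and 2501 TPM in knockout libraries, against 2462, 2819 and 2349 TPM in wild-type libraries, and these sums overlapped. Wild-type replicate 2 held the highest value for 8 of the 23 members at 100 TPM or more, and knockout replicate 2 the lowest for 10.

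In the V0 sector a single gene rose, Atp6v0e, which encodes the small membrane subunit e1 (chromosome 17, 26663231 to 26699647, GRCm38). It was at 44.9, 62.5 and 65.9 TPM in knockout libraries, against 31.7, 20.6 and 25.0 TPM in wild-type libraries. All 3 knockout values lay above all 3 wild-type values, and the nearest pair was knockout replicate 1 and wild-type replicate 1. The means were 57.8 ± 11.3 TPM in knockout and 25.8 ± 5.63 TPM in wild type (SD, n = 3 each). The log2 difference was 1.14 with an SE of 0.20 and passed limma (adjusted p = 0.0178). The adjusted p was 0.0714 without knockout replicate 2, 0.0598 without wild-type replicate 3 and 0.112 with replicates 1 and 2 of each group only (log2 difference 1.02), so the call is lost in those settings while the direction is not. Fitted with glial level as a covariate, Atp6v0e differed by 1.24 (adjusted p = 0.0492).

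The paralog of this subunit, Atp6v0e2, which is enriched in brain, had the higher TPM of the pair and did not pass. It was at 228, 203 and 237 TPM in knockout libraries, against 248, 256 and 285 TPM in wild-type libraries. These groups did not overlap either, with knockout lower, and the difference did not pass (log2 difference -0.24, SE 0.11, limma adjusted p = 0.221). As a share of the pair within each library, Atp6v0e made up 16.5%, 23.5% and 21.8% in knockout, against 11.3%, 7.42% and 8.07% in wild type. Such a share does not depend on how a library was scaled. It was chosen after the values were seen and is given without a test.

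The other V0 genes did not pass. Atp6v0c, which encodes the proteolipid of the rotor ring, was the second most abundant member and stood at 724, 830 and 766 TPM in knockout libraries, against 678, 592 and 492 TPM in wild-type libraries. The groups did not overlap (log2 difference 0.41, SE 0.13, limma adjusted p = 0.107). Processed pseudogenes match 39.3% of its transcript at 99.8% and 97.2% identity, so its value is uncertain. Atp6v0d1, which caps the ring, was at 287, 289 and 247 TPM in knockout libraries and 248, 270 and 255 TPM in wild-type libraries, with overlap. Atp6v0a1, the proton channel subunit of neurons, averaged 161 ± 9.90 TPM in knockout and 223 ± 44.7 TPM in wild type (SD, n = 3 each). Its log2 difference of -0.45 did not pass (limma adjusted p = 0.122), and without wild-type replicate 1 it was -0.61 and passed (adjusted p = 0.0312). Atp6v0b, a further rotor proteolipid, and Atp6v0a2, the channel subunit known from the Golgi, had log2 differences of 0.02 and 0.04, with 95% intervals from -0.28 to 0.31 and from -0.38 to 0.45.

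Isoforms known from kidney, bone or testis were at or near 0. Atp6v1b1, Atp6v1g3, Atp6v0d2 and Atp6v0a4 stayed at or below 1.07 TPM in every library and Atp6v1c2 at or below 1.94 TPM. Atp6v1e2, known from testis, was listed at 0 throughout. Of the isoform genes caught by the name rule, those present were Atp6v1b2, Atp6v1c1, Atp6v1e1, Atp6v1g1, Atp6v1g2, Atp6v0a1, Atp6v0a2, Atp6v0d1, Atp6v0e and Atp6v0e2. Isoforms under other names were not looked at. Atp6v0a1 made up 89.8%, 89.4% and 87.7% of the summed TPM of Atp6v0a1, Atp6v0a2 and Atp6v0a4 in knockout libraries, against 90.2%, 94.1% and 91.3% in wild-type libraries. This share was chosen after the values were seen and is given without a test.

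The accessory subunits differed little. Atp6ap1, which helps the pump assemble and guides it, was at 318, 297 and 331 TPM in knockout libraries, against 270, 262 and 265 TPM in wild-type libraries. The groups did not overlap, and the log2 difference of 0.25 (SE 0.10, limma adjusted p = 0.164) did not pass. Atp6ap2, also known as the prorenin receptor, was at 149, 134 and 171 TPM in knockout libraries, against 150, 181 and 167 TPM in wild-type libraries, with overlap. All pump and accessory genes together summed to 4296, 4265 and 4696 TPM in knockout and 4439, 4849 and 4239 TPM in wild type, with overlap. The V0 sector alone summed to 1623, 1698 and 1692 TPM in knockout libraries, against 1558, 1587 and 1459 TPM in wild-type libraries, without overlap. The V0 means were 1671 TPM in knockout and 1535 TPM in wild type. The V1 means were 2281 TPM in knockout and 2543 TPM in wild type, and the V1 sums overlapped. Atp6v0c, whose value is uncertain, averaged 774 TPM in knockout and 587 TPM in wild type. That gap is larger than the gap between the V0 means, so the direction of the V0 sum rests on this gene. None of these sums was tested.

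**Figure D2:**
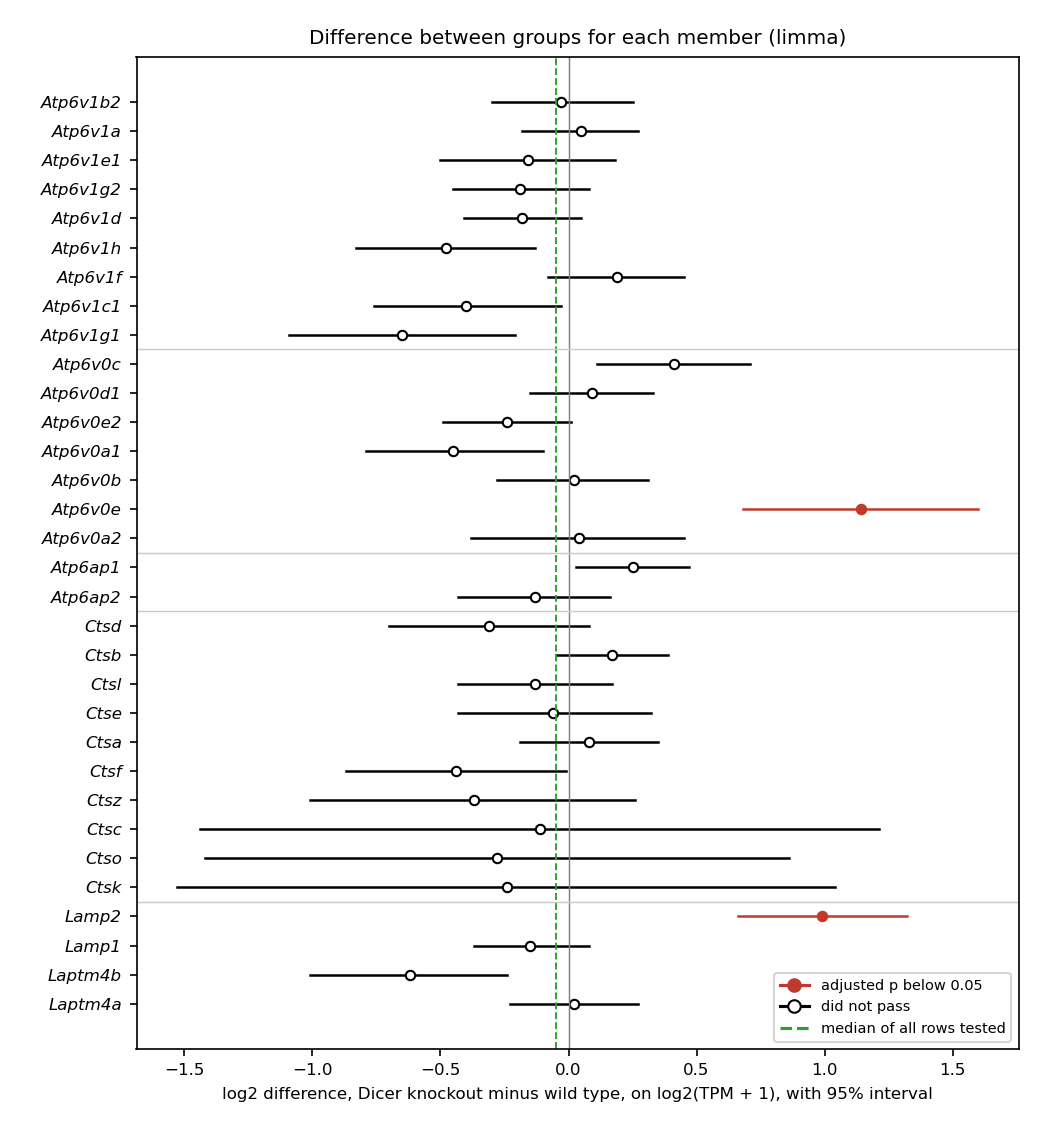
Log2 difference, Dicer knockout minus wild type, on the log2(TPM + 1) scale for each tested member, with its 95% interval from limma (3 libraries per group); filled red points passed at an adjusted p below 0.05 and the dashed green line is the median of all rows tested. Lamp2 (0.99) and Atp6v0e (1.14) passed, and the widest intervals belong to Ctsc, Ctso and Ctsk.

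None of the 10 tested cathepsins passed limma. Ctsd, an aspartic protease and the most abundant member, was at 523, 624 and 683 TPM in knockout libraries, against 580, 830 and 882 TPM in wild-type libraries. Wild-type replicate 1 lay inside the knockout range, and the log2 difference was -0.31 (SE 0.17, limma adjusted p = 0.315). An overlapping gene model on the same strand, Gm49369, matches 31.5% of its transcript without a mismatch, so reads could be split between them. Ctsb, a cysteine protease, was at 645, 659 and 625 TPM in knockout libraries, against 557, 607 and 548 TPM in wild-type libraries. Those groups did not overlap, with a log2 difference of 0.17 and a 95% interval from -0.05 to 0.39. Ctsl, the other abundant cysteine protease, was at 311, 337 and 348 TPM in knockout libraries, against 315, 435 and 351 TPM in wild-type libraries, with overlap.

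The remaining cathepsins lay well below these 3. Ctse, an aspartic protease of endosomes, averaged 58.3 ± 7.03 TPM in knockout and 61.1 ± 12.4 TPM in wild type, and Ctsa, a serine carboxypeptidase that also shields other lysosomal enzymes, 54.4 ± 1.82 and 51.5 ± 3.67 TPM (SD, n = 3 each). Ctsf, a cysteine protease, had a log2 difference of -0.44 (limma adjusted p = 0.202), and Ctsz, a carboxypeptidase, one of -0.37 (limma adjusted p = 0.459). Ctsc, Ctso and Ctsk averaged 2.97, 1.39 and 1.24 TPM over the 6 libraries, and in each the value of replicate 2 was the lowest of its group, in knockout and in wild type, so differences between groups there had intervals more than 2 log2 units wide. Ctsh averaged 0.837 TPM and was not tested. Ctsq was listed at 1.93 TPM in knockout replicate 2 and at 0 elsewhere, and Ctsg, Ctsj, Ctsm, Ctsr, Ctss and Ctsw were listed at 0 in every library. Ctsj, Ctsm, Ctsq and Ctsr belong to a rodent cluster known from placenta.

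Among the membrane proteins, Lamp2 rose. This glycoprotein of the lysosomal membrane has spliced forms, one of which is the receptor of chaperone-mediated autophagy, and the table holds 1 row for all of them. Lamp2 was at 798, 823 and 707 TPM in knockout libraries, against 484, 351 and 347 TPM in wild-type libraries. All knockout values lay well above all wild-type values, and wild-type replicate 1 was the nearest to them. The means were 776 ± 60.9 TPM in knockout and 394 ± 77.7 TPM in wild type (SD, n = 3 each). The log2 difference was 0.99 with an SE of 0.15 and passed limma (adjusted p = 0.00904). The call held whichever single library was left out (log2 difference 0.91 to 1.15, adjusted p = 0.00768 to 0.0489), and in the fit with glial level as a covariate (0.96, adjusted p = 0.0491). With replicates 1 and 2 of each group only, the log2 difference was 0.98 and the adjusted p 0.0519. Lamp2 lies on the X chromosome (chromosome X, 38401357 to 38456454, GRCm38), and the libraries that stood apart in sex-linked transcripts were 1 per group.

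Lamp1, its closest relative and the other main LAMP of the membrane, did not pass (limma adjusted p = 0.419). It was at 403, 383 and 419 TPM in knockout libraries, against 413, 459 and 461 TPM in wild-type libraries, with overlap and a 95% interval of the log2 difference from -0.37 to 0.08. The ratio of Lamp2 to Lamp1 within a library was 1.98, 2.15 and 1.69 in knockout and 1.17, 0.764 and 0.753 in wild type. Lamp2 was thus above Lamp1 in every knockout library and in wild-type replicate 1, and below it in the other 2 wild-type libraries. The ratio was chosen after the values were seen and is given without a test. Lamp3, known from dendritic cells, and Lamp5, known from brain neurons, did not exceed 0.23 TPM in any library. No row carried the name Lamp4; Cd68, a macrophage gene of the same family, was at 0 to 0.91 TPM in knockout and 0 to 0.61 TPM in wild type.

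Laptm4b, a lysosomal membrane protein that spans the bilayer several times, was at 358, 229 and 338 TPM in knockout libraries, against 430, 460 and 516 TPM in wild-type libraries. Every knockout value lay below every wild-type value, with knockout replicate 2 the lowest, and the difference did not pass (log2 difference -0.62, SE 0.17, limma adjusted p = 0.0693). A processed pseudogene matches 36.0% of its transcript at 96.6% identity. Its paralog Laptm4a was at 117, 124 and 117 TPM in knockout libraries and 123, 106 and 124 TPM in wild-type libraries, with overlap. The ratio of Laptm4b to Laptm4a was 3.07, 1.85 and 2.89 in knockout, against 3.49, 4.32 and 4.14 in wild type. This ratio, too, was chosen after the values were seen and is given without a test.

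**Figure D3:**
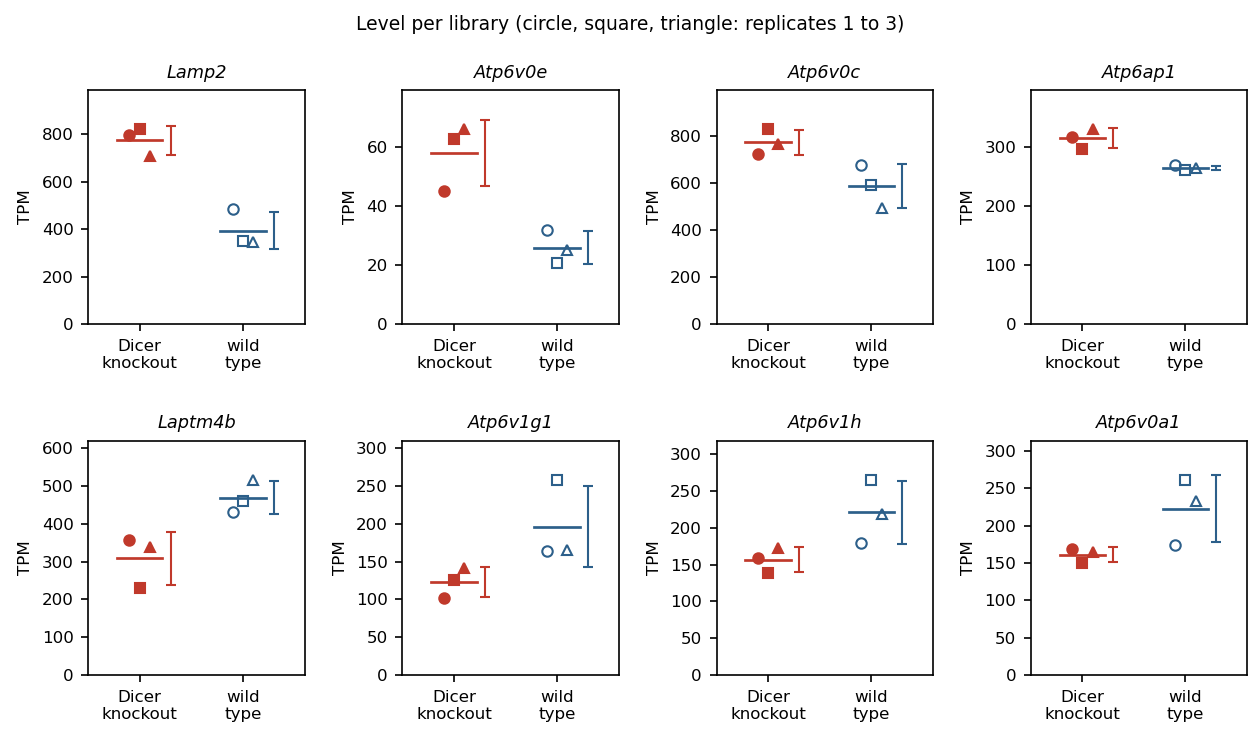
TPM per library of the 2 members that rose (Lamp2 and Atp6v0e) and 6 that did not pass, with the mean (line) and SD (bar) of 3 libraries per group. Only members whose groups did not overlap are shown, so the separation in each panel follows from the choice of panels. Such separation held for 18.8% (higher) and 21.9% (lower) of tested members, against 11.8% and 17.1% of all rows. In all 8 panels wild-type replicate 1 (circle) is the wild-type library nearest to knockout.

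**Figure D4:**
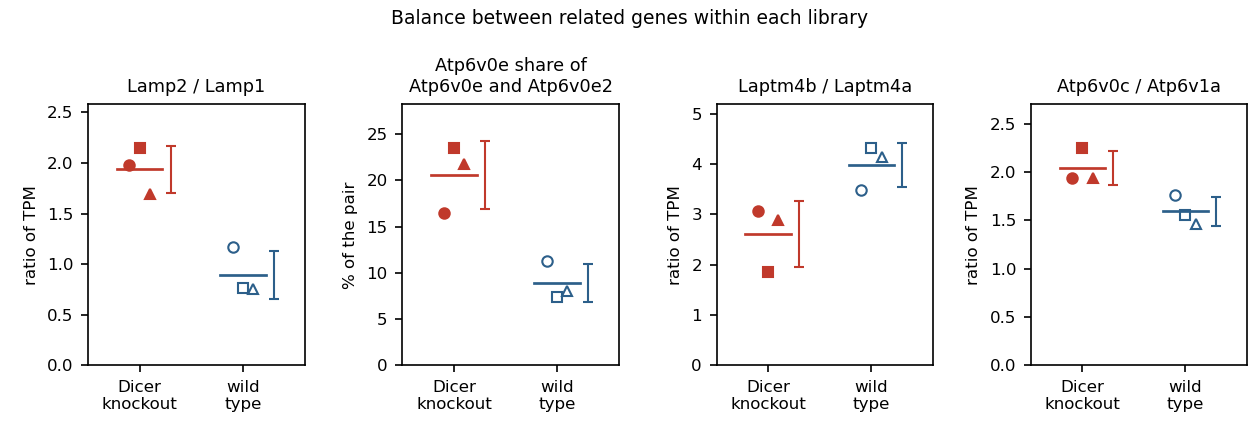
Ratio or share of related genes within each library, which does not depend on the scaling of the library; line and bar give mean and SD of 3 libraries per group. Lamp2 over Lamp1 is 1.69 to 2.15 in knockout and 0.753 to 1.17 in wild type, and Atp6v0e makes up 16.5% to 23.5% of its pair in knockout and 7.42% to 11.3% in wild type. The ratios were chosen after the values were seen, only ones whose groups did not overlap are shown, and none was tested. The Atp6v1g1 share of Atp6v1g1 and Atp6v1g2, Atp6v0c over Atp6v0d1 and Ctsd over Ctsb overlapped between groups and are not shown.

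The promoters of the members were read for the E-box of the CLEAR element. RefSeq promoters (GRCm38.p6, 250 bases before to 50 after the start) were at hand for 24 of the 32 tested members. CACGTG, which reads the same on both strands, was in 9 of the 24 (37.5%), against 11.7% of 9462 genes with tested rows and promoters. The longer palindrome TCACGTGA, which contains it, was in 5 of the 24 (20.8%), against 2.21% of those genes, and with a G before it and a C after it in none, against 0.824%. The 9 were Atp6v0b, Atp6v0d1, Atp6v0e, Atp6v1a, Ctsa, Ctsd, Ctsf, Ctsl and Lamp1. Their log2 differences ran from -0.44 to 1.14 with a median of 0.02, and 1 of them, Atp6v0e, rose. The promoter of Lamp2 held no CACGTG. Windows around the motif are shown for Lamp1, with 4 copies, none of them in the longer palindrome. They are also shown for Atp6v0e, Ctsd, Ctsa and Atp6v0d1, which hold the longer palindrome. Atp6v1a holds it too and is not shown. Capitals mark CACGTG.
Atp6v0e (chr17:26676387-26676416, plus strand): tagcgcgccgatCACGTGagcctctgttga
Lamp1 (chr8:13159090-13159161, plus strand): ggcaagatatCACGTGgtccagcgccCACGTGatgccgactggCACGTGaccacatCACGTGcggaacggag
Ctsd (chr7:142387908-142387937, minus strand): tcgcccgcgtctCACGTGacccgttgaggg
Ctsa (chr2:164833751-164833793, plus strand): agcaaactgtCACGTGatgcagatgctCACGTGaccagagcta
Atp6v0d1 (chr8:105566050-105566079, minus strand): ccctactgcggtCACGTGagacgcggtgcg
In Atp6v0e the motif began at base 4 counted from the RefSeq start, which lies inside the GENCODE span of the gene given above. In Atp6v0d1 it began 3 bases before the RefSeq start and ran across it. A match is a description of the sequence, and binding was not measured.

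Since Dicer matures microRNAs, the 3' UTRs of the members were searched for sites of 21 microRNAs known from neurons or expressed widely. A site was 7 bases complementary to the seed, bases 2 to 8 of the microRNA. In the longest annotated 3' UTR of each gene (GENCODE vM21), tested members held sites for a median of 2 of the 21. The median was also 2 over the 11525 genes that had tested rows and an annotated 3' UTR. Median UTR lengths were 907.5 bases in tested members and 1261 bases in those genes. Lamp2 had sites for miR-7a-5p and miR-96-5p in the 2205-base UTR of its transcript 202, and none in the 370-base and 782-base UTRs of transcripts 201 and 203. Atp6v0e had sites for miR-9-5p, miR-24-3p, miR-34a-5p and miR-181a-5p in the 2503-base UTR of transcript 202, and none in its 4 shorter ones, of 64 to 472 bases. Sites of the miR-7a and miR-96 seeds were present in 14.4% and 10.2% of the 11525 genes. The microRNAs with sites in Lamp2, and miR-9-5p with its site in Atp6v0e, are shown with the seed in capitals. The UTR sites have the matching bases in capitals.
miR-7a-5p: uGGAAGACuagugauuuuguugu
Lamp2 site (chrX:38420916-38420922, minus strand): tgaaccttccaGTCTTCCttgttggtggt
miR-96-5p: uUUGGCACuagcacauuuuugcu
Lamp2 site (chrX:38421006-38421012, minus strand): attgctaggcaGTGCCAAatgaaggcatt
miR-9-5p: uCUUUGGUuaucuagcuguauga
Atp6v0e site (chr17:26696817-26696823, plus strand): gggtcagggtcACCAAAGatcccttgagt
Coordinates are of the 7 capitals on GRCm38. MicroRNAs were not measured in these libraries, the table does not say which UTR the transcripts carried, and whether any site bears on a level was not tested. Laptm4b, which was lower in every knockout library without passing, held sites for miR-23a-3p, miR-24-3p and miR-181a-5p. Sites of these seeds were present in 17.6%, 19.6% and 19.4% of the 11525 genes.

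Around the members, 7 lists of lysosomal and related genes held 151 tested genes, of which 7 rose and 4 fell. That is 4.64% and 2.65%, beside 1.86% and 3.17% of all rows; without knockout replicate 1 the counts were 1 and 0, and with replicates 1 and 2 of each group only they were also 1 and 0. With the glial covariate they were 2 and 0: Ids (log2 difference 0.74, limma adjusted p = 0.0413) and Serpinb1a (1.10, limma adjusted p = 0.0362) still passed, and the calls of the other 9 were lost at adjusted p = 0.0509 to 0.138 with their directions kept. In that fit Sort1 differed by -1.18, Lipa by -0.68, Nbr1 by -0.48, Atp13a2 by 0.84, Gabarap by 0.62, Wipi1 by 1.04, Tpp1 by 0.60 and Ncoa7 by 0.46. Of 37 tested lysosomal hydrolases, 2 rose and 2 fell, with a median log2 difference of 0.00. Ids, which removes sulfate from glycosaminoglycans, was at 290, 263 and 276 TPM in knockout libraries, against 189, 157 and 185 TPM in wild-type libraries (log2 difference 0.64, limma adjusted p = 0.0159), and the groups did not overlap. Tpp1, a tripeptidyl peptidase, rose by 0.60 (limma adjusted p = 0.0407). Lipa, the acid lipase, was at 119, 106 and 98.7 TPM in knockout libraries, against 203, 157 and 182 TPM in wild-type libraries. It fell by 0.73 on the log2 scale (limma adjusted p = 0.0178).

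Of 27 tested lysosomal membrane proteins and channels, Atp13a2, a polyamine pump of the lysosome, rose by 0.82 (limma adjusted p = 0.0122) and 26 did not pass. It was at 62.6, 70.2 and 76.8 TPM in knockout libraries, against 36.6, 40.2 and 40.4 TPM in wild-type libraries, with no overlap. Of 10 tested genes of pump assembly and regulation, Ncoa7, whose protein binds the V-ATPase, rose by 0.48 (limma adjusted p = 0.0308). Of 24 sorting genes, Sort1, the sorting receptor sortilin, fell to 10.2, 4.45 and 13.4 TPM in knockout libraries, against 25.2, 27.6 and 25.1 TPM in wild-type libraries (log2 difference -1.49, limma adjusted p = 0.0349). None of the 22 regulators and nutrient sensors passed limma; before adjustment 0 were higher at p below 0.05 and 3 lower, which is 13.6% beside the 14.1% of all rows. Rheb, the small GTPase that activates mTORC1 and the most abundant of them, averaged 211 ± 5.43 TPM in knockout and 239 ± 38.7 TPM in wild type, and Tfeb itself 1.78 ± 0.503 and 4.34 ± 2.79 TPM (SD, n = 3 each; log2 difference -0.83, limma adjusted p = 0.247).

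Of 26 autophagy genes, 2 rose, 1 fell and 23 did not pass, with a median of -0.06. Wipi1, which binds the lipid that marks forming autophagosomes, rose by 1.0 (limma adjusted p = 0.0409). Gabarap, a protein that is coupled to the autophagosome membrane, was at 310, 341 and 288 TPM in knockout libraries, against 238, 178 and 177 TPM in wild-type libraries (log2 difference 0.67, limma adjusted p = 0.0312). Nbr1, a cargo receptor, fell by 0.48 (limma adjusted p = 0.0486). Among 5 tested inhibitors of cathepsins and related proteases, Serpinb1a was at 272, 248 and 202 TPM in knockout libraries, against 129, 95.7 and 129 TPM in wild-type libraries. It rose by 1.02 on the log2 scale (limma adjusted p = 0.0112), and in human its counterpart inhibits serine proteases of neutrophils, cathepsin G among them. Ctsg, which encodes cathepsin G, was listed at 0 in all libraries.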

How the data were processed

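Per the labels' protocols, RNA from parvalbumin-positive neurons was extracted with the PicoPure kit, amplified as cDNA with an Ovation kit and sequenced. The submitters' processing notes name cutadapt, Bowtie2, RSEM 1.2.7 and mm10; no source used here names the annotation. The deposited table holds TPM values that the authors computed, 1 column per library. TPM keeps no sequencing depth, so the depth behind each value is unknown, and a rise of abundant transcripts lowers other values. An exact 0 may be an estimate that failed.

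Values were taken as log2(TPM + 1) and fitted by limma 3.58.1 (R 4.3.3), moderated with a trend on mean level and with genotype as the only term, over all 13787 rows that averaged 1 TPM or more, two-sided, with Benjamini-Hochberg adjustment over all rows and a threshold of 0.05. Differences are knockout minus wild type; the pseudocount shrinks those of low rows. The fit was tested on simulated data. With 3 libraries a side, exact permutation stops at 0.1 and was not used. The members, the gene lists and the alternatives were chosen with earlier results of these data known. Values per library are given for members that passed, the 3 most abundant of each role, and members with groups apart by at least 0.5; Atp6v1h and Atp6v0a1 were named after their values were seen. Up to 4 called genes are named per list, or the most abundant where none was called; Tfeb, Lyz2 and Laptm4a were added. Of the list genes, Tldc2 was not found by name. The values of 1 gene counted in the lists are not reported here. Repeated names were Atp6v1g2 and Ctse, whose second rows were at most 6.06 TPM and at 0. The main fit did not pair libraries by replicate number, and whether the numbers pair them was not settled. Sequences are from RefSeq (GRCm38.p6) and GENCODE vM21, both on the assembly that mm10 names. Promoters of Atp6v0a2, Atp6v1b2, Atp6v1c1, Atp6v1g1, Atp6v1h, Ctsb, Ctse and Laptm4b were not used here.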

Additional observations from a re-analysis of the deposited data

How the results depend on the processing

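The directions of Lamp2 and Atp6v0e held under all 17 alternatives, and no member called changed sign. Lamp2 passed in 14 (log2 difference 0.91 to 1.15, limma adjusted p = 0.00713 to 0.157) and Atp6v0e in 12 (0.99 to 1.31, adjusted p = 0.0139 to 0.198). Besides the settings given above, their calls were lost with no filter (adjusted p = 0.157 and 0.198) and with no intensity trend (0.0581 and 0.0704). Of the 30 members that did not pass, 28 passed under no alternative, and Atp6v0a1 and Atp6v1h passed without wild-type replicate 1. The counts of 256 rows higher and 437 lower became 7 and 12 with no filter on low rows, 57 and 168 with no intensity trend, 65 and 139 with replicates 1 and 2 only, and 101 and 136 with the satellite glia covariate; quantile normalization gave 389 higher. Members higher were 0 with no filter, with no trend and with replicates 1 and 2 only. The pathway lists, with 7 higher and 4 lower, gave 0 and 0 with no filter and with no trend, 1 and 0 with replicates 1 and 2 only, 2 and 0 with the glia covariate, and 7 lower with a filter at 5 TPM. Leaving out 1 library at a time gave 48 to 348 rows higher and 116 to 487 lower, 1 to 2 members higher and 0 to 2 lower, and 1 to 6 list genes higher and 0 to 7 lower. The cause of these changes was not tested. Same-numbered libraries correlated at 0.0492, 0.0659 and 0.0382 in their deviations from the group means, and not every library correlated best with its own number; with the replicate block 188 rows were higher and 341 lower, 2 members were higher and 0 lower, and 4 list genes were higher and 3 lower. A term for replicate 3 also gave 4 list genes higher. Depth is unknown for TPM, and 3 libraries per group limit what could pass: the 95% intervals of the 22 members at 100 TPM or more that did not pass reached from -1.09 to 0.71.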
